A study of Homo sapiens with 10 samples.

Results

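The 4 human Notch receptor genes, NOTCH1, NOTCH2, NOTCH3 and NOTCH4, and 6 genes of their ligands, JAG1, JAG2, DLL1, DLL3, DLL4 and DLK1, were followed in 10 RNA-seq libraries. They were chosen by gene name and are 10 of the 23585 genes with a value. The cells were SH-SY5Y, an established cloned line of human neuroblastoma, so every group had the same genetic background. In 3 libraries the cells had received 100 nM of an siRNA directed at LncND, a long non-coding RNA of primates that the series title ties to Notch signalling and to the capture of a miRNA. Their controls were 3 libraries of cells given a scrambled siRNA. In 2 libraries the cells had received 50 nM of a mimic of miR-143-3p, and their controls were 2 libraries of cells given a scrambled miRNA. All cells were harvested at 72 h, and the labels give no dose for the scrambled controls. Whether the numbered replicates came from separate cultures is not stated, and all p-values therefore reflect only the spread among the libraries at hand, possibly of technical origin. The levels of LncND and of miR-143-3p itself were not analysed here.

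Notch receptors are membrane proteins that bind ligands on neighbouring cells. Binding to a Jagged ligand (JAG1, JAG2) or a Delta-like ligand (DLL1, DLL4) exposes the receptor to cleavage by an ADAM protease and then by gamma-secretase, and the freed intracellular domain joins RBPJ and a Mastermind protein on DNA to switch on genes such as those of the HES and HEY repressors. DLL3 and DLK1 lack features that activating ligands use and are mainly known as inhibitors of Notch in the same cell. In the developing nervous system Notch signalling keeps progenitors from differentiating, and DLK1 is expressed in many neuroblastomas and in chromaffin cells of the adrenal medulla.

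Values are FPKM, fragment numbers taken relative to transcript length and to the mapped fragments of the library, and so can be compared between genes. The siRNA libraries and the miRNA libraries were deposited as separate tables, and levels are compared only within a table. Estimated depth was 30.6 to 52.3 M fragments in the siRNA libraries and 16.5 to 44.6 M in the miRNA libraries. Of 13 noradrenergic neuroblastoma markers, 12 had a mean of at least 1 FPKM and TH, the rate-limiting enzyme of catecholamine synthesis, was below it, while none of 6 endothelial and blood markers and none of 5 epithelial markers reached it. The noradrenergic list summed to 1959 to 2029 FPKM per library with scrambled siRNA, 2429 to 2537 with LncND siRNA, 3131 to 3138 with scrambled miRNA and 3358 to 3365 with the mimic. Among Schwann and glial markers 1 of 6 reached 1 FPKM (SOX10 and GFAP did not), and the list summed to 3.64 to 3.79, 6.73 to 7.08, 4.42 to 5.33 and 3.51 to 3.61 FPKM in the same order of groups. Among mesenchymal markers 5 of 6 reached it (PRRX1 did not), and the list summed to 313 to 326, 349 to 352, 418 to 424 and 340.2 to 343 FPKM. These sums differed between treated and control libraries without overlap, and their part in the results was not tested. LncND siRNA replicate 1 stood apart: the small Y RNA gene RNY4 was listed there at 1224670 FPKM, against 0.001 in the other 9 libraries. Below, the differences of NOTCH1, NOTCH2 and NOTCH3 and the counts of the nuclear complex are also given without that library. Without it the LncND siRNA comparison still called 7 of the 8 tested members, 4 higher and 3 lower.

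The guide strand that the mimic carries is shown because its seed, bases 2 to 8 in capitals, is what was searched for in the transcripts of the members. The sequence is from RefSeq (GRCh38.p14, chr5:149428978-149428998, plus strand).
miR-143-3p: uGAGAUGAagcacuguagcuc
A match was TCATCTC (the complement of bases 2 to 8), CATCTCA (the complement of bases 2 to 7 followed by A) or the longer TCATCTCA that holds both, on the sense strand. In the GENCODE v29 transcripts of GRCh38 with the longest coding sequence, DLK1 and JAG1 held matches in the 3′ UTR. Each is shown in 30 bases of context on the gene's strand with the match in capitals.
DLK1, 7-base match, chr14:100737244-100737250: tcataagtcacCATCTCAtctcattttgag
DLK1, 8-base match, chr14:100737248-100737255: aagtcaccatcTCATCTCAttttgagtttg
DLK1, 7-base match, chr14:100737764-100737770: agaagagccacCATCTCAccttcccacgca
JAG1, 7-base match, chr20:10639310-10639316: atcgagtgccgCATCTCAcagctatgcaaa
The first pair of DLK1 matches overlap each other. All 3 lie 10417 to 10937 bases from the start of the transcript, whereas the DLK1 row of the authors' tables spans 8266 bp, so the counted gene model may end before them. In the coding sequence NOTCH1, NOTCH2, NOTCH3 and DLL1 held 1 match each, shown in the same way. These genes lie on the minus strand of chromosomes 9, 1, 19 and 6. JAG1 lies on the minus strand as well, and DLK1 on the plus strand.
NOTCH1, chr9:136500754-136500760: cgcgccggccgTCATCTCcgacttcatcta
NOTCH3, chr19:15165989-15165995: atcagctagcaTCATCTCcgacctgatctg
NOTCH2, chr1:120005424-120005430: ccagtactcaaCATCTCAtccatgctttgt
DLL1, chr6:170283470-170283476: cgtgagaaggaCATCTCAgtcagcatcatc
The NOTCH1 and NOTCH3 matches share an 11-base run, TCATCTCCGAC. NOTCH4, JAG2, DLL3 and DLL4 held no match in either region. Among tested genes whose sequence could be searched, 21.1% held a match in the 3′ UTR and 22.3% in the coding sequence, so a match of these lengths is common.

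With LncND siRNA 4 of the 10 members rose (NOTCH1, JAG1, JAG2, DLK1), 3 fell (NOTCH2, NOTCH3, DLL3), NOTCH4 did not pass, and DLL1 and DLL4 were below the minimum of 1 FPKM for testing. The test was limma on log2(FPKM + 1) with Benjamini-Hochberg adjustment over all genes and a threshold of 0.05, and it called 66.9% of all 12601 genes tested, 36.6% higher and 30.3% lower. The libraries of the treated and control groups did not overlap for 7 of the 8 tested members, against 70.9% of all genes. With the mimic 1 member rose (DLK1), 4 fell (NOTCH1, NOTCH2, NOTCH3, DLL3), 3 did not pass (NOTCH4, JAG1, JAG2) and the same pair was not tested. That comparison called 63.3% of 12558 genes, 24.6% higher and 38.6% lower, and the groups did not overlap for 8 of 8 tested members, against 81.9% of all genes. Changes were thus common among all genes, and what follows is about which members moved, in which direction and by how much. In bulk RNA, fewer cells that express a gene and less of its RNA in each cell cannot be told apart.

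**Figure D1:**
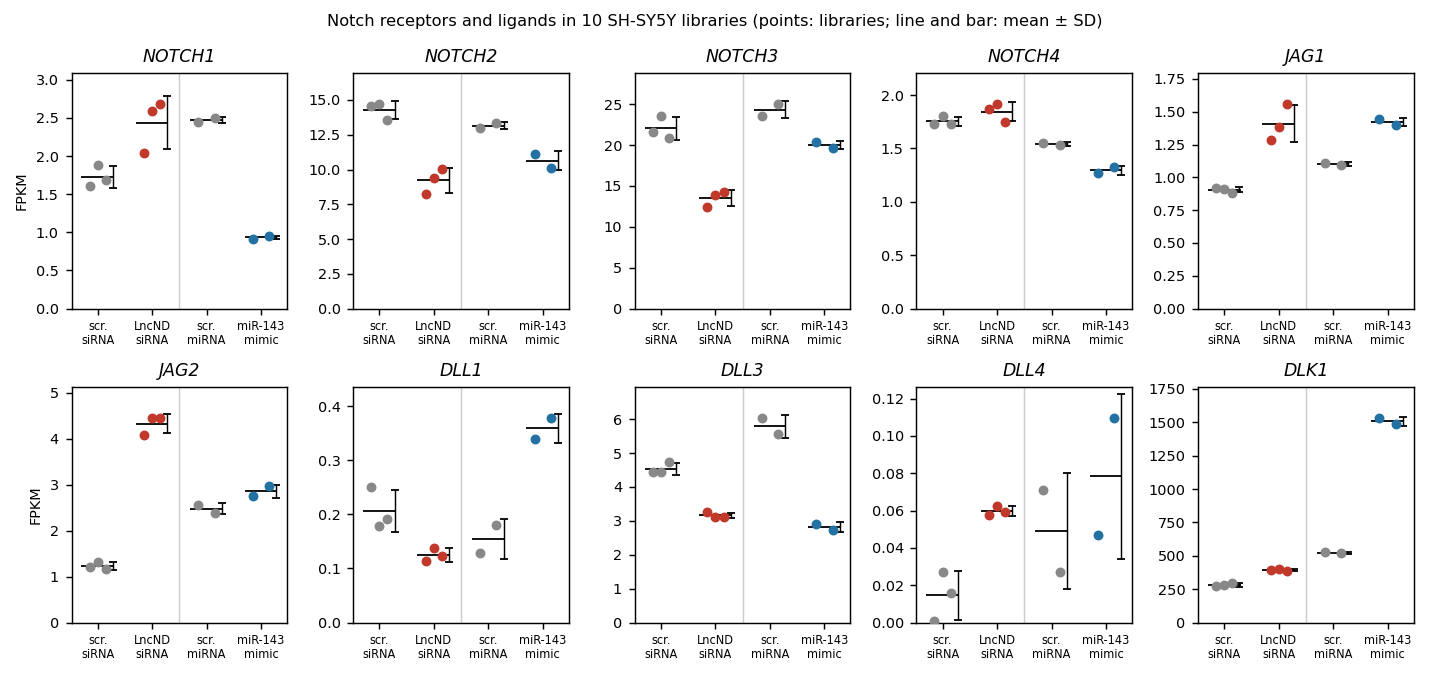
FPKM of the 10 members in each library (points), grouped as scrambled siRNA, LncND siRNA, scrambled miRNA and miR-143-3p mimic, with the mean as a line and 1 SD as a bar; each panel has its own linear axis from 0. NOTCH1 is above its controls with LncND siRNA and below them with the mimic, NOTCH2 and NOTCH3 are lower with both treatments, and DLK1 stands at 1485 to 1533 FPKM with the mimic.

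Among the receptors, NOTCH1, which maintains neural progenitors, went opposite ways in the comparisons. It was at 1.61, 1.88 and 1.69 FPKM with scrambled siRNA and at 2.04, 2.59 and 2.68 FPKM with LncND siRNA. Every LncND siRNA library was above every control library, and replicate 1 was the lowest of the treated libraries. The rise was 1.41-fold in mean FPKM (log2 difference 0.33 ± 0.080 SE, limma adjusted p = 0.00433), and 0.42 on the log2 scale without that replicate. Under quantile normalization it missed the threshold (0.19, adjusted p = 0.0539, range over the settings tried 0.000337 to 0.0539). With the mimic NOTCH1 was at 0.916 and 0.951 FPKM, against 2.45 and 2.50 FPKM in the scrambled miRNA libraries. Both mimic libraries lay well below both controls, 2.65-fold lower in the mean (log2 -0.85 ± 0.083, limma adjusted p = 1.91e-05). Its mimic libraries alone were under the minimum of 1 FPKM for testing, and with no minimum the adjusted p was 0.0112.

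NOTCH2 and NOTCH3, the most abundant receptors here, fell in both comparisons. NOTCH2 was at 14.6, 14.7 and 13.5 FPKM with scrambled siRNA and at 8.27, 9.38 and 10.03 FPKM with LncND siRNA (log2 -0.58 ± 0.063, limma adjusted p = 2.06e-05). NOTCH3 was at 21.6, 23.6 and 20.9 FPKM in those controls and at 12.5, 13.9 and 14.2 FPKM with LncND siRNA (log2 -0.67 ± 0.058, adjusted p = 4.17e-06). For both receptors the treated libraries were separate from the controls, and replicate 1 was the lowest of the 3. Without it the log2 differences were -0.51 for NOTCH2 and -0.61 for NOTCH3. With the mimic NOTCH2 was at 11.1 and 10.1 FPKM, against 13.0 and 13.3 FPKM (log2 -0.29 ± 0.059, limma adjusted p = 0.00209), and NOTCH3 was at 20.3 and 19.7 FPKM, against 23.6 and 25.03 FPKM (log2 -0.27 ± 0.051, adjusted p = 0.00123). The mimic libraries were again below both controls, by less than with the siRNA. The NOTCH2 call with the mimic was lost when no filter on low genes was used (adjusted p = 0.0676). NOTCH2 has a near-identical partial copy, NOTCH2NL, between which and NOTCH2 the counting could have divided reads. It was listed at 1.11 to 1.37 FPKM with scrambled siRNA, 0.637 to 0.879 FPKM with LncND siRNA, 0.691 to 0.883 FPKM with scrambled miRNA and 0.682 to 0.795 FPKM with the mimic, well below NOTCH2 in every library.

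NOTCH4, best known from endothelium, was the receptor with the least difference in both comparisons. It was at 1.73, 1.80 and 1.73 FPKM with scrambled siRNA and at 1.87, 1.92 and 1.74 FPKM with LncND siRNA, and the groups overlapped (log2 0.046 ± 0.055, limma adjusted p = 0.474; -0.099 under quantile normalization). With the mimic it was at 1.27 and 1.33 FPKM, against 1.55 and 1.53 FPKM, below both controls but short of the threshold (log2 -0.15 ± 0.085, adjusted p = 0.16; 0.0407 without limma's variance trend). The endothelial markers listed above summed to at most 0.452 FPKM in any library. NOTCH4 also has 6 rows on alternate haplotypes of chromosome 6, all at 0.001 FPKM.

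The members are located by the hg19 coordinates of the authors' tables, whose starts may be counted from 0: NOTCH1 at chr9:139388895-139440238, NOTCH2 at chr1:120454175-120612317, NOTCH3 at chr19:15270443-15311792 and NOTCH4 at chr6:32162619-32191844. JAG1 lies at chr20:10618331-10654694, JAG2 at chr14:105607317-105635161, DLL1 at chr6:170591293-170599697, DLL3 at chr19:39989556-39999121, DLL4 at chr15:41221530-41231258 and DLK1 at chr14:101193201-101201467. Inside NOTCH1 lies the miRNA gene MIR4673, listed at 0.001 FPKM in all libraries.

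The proportion of NOTCH3 to NOTCH2 was compared in each library. The NOTCH3 to NOTCH2 ratio of FPKM was 1.54 ± 0.0586 (SD, n = 3) with scrambled siRNA and 1.47 ± 0.0454 (n = 3) with LncND siRNA, with overlapping libraries (exact permutation p = 0.2, where 0.1 is the smallest that 3 against 3 libraries allow). It was 1.85 ± 0.0456 (n = 2) with scrambled miRNA and 1.89 ± 0.0780 (n = 2) with the mimic, again overlapping. These group sizes cannot show that the ratio was stable. Because both receptors fell in both comparisons, the RefSeq promoters of this pair (GRCh38.p14, 250 bases before to 50 after the start, gene strand) are shown with GC boxes, GGGCGG or CCGCCC on the printed strand, in capitals.
NOTCH2, chr1:120069613-120069912, minus strand: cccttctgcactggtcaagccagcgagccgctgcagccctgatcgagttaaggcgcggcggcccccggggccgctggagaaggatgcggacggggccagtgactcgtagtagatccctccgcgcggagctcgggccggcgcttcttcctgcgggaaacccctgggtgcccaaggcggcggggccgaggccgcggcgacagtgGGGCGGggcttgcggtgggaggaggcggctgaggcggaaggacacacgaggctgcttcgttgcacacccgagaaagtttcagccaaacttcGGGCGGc
NOTCH3, chr19:15200946-15201245, minus strand: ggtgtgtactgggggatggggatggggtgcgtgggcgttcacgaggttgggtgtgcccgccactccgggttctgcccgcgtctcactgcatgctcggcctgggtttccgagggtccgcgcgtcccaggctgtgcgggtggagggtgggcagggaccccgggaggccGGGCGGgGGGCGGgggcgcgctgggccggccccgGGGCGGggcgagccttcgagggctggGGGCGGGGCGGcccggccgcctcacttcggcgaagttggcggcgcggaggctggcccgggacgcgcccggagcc
The NOTCH2 window held 2 GC boxes and the NOTCH3 window 5, the last pair overlapping. Promoter sequences were found for 7 of the 10 members (NOTCH1 to NOTCH4, JAG1, JAG2 and DLL4), and all 7 held at least 1 GC box, as did 45.0% of 35116 promoters of the same length. The windows not shown held 4 (NOTCH1), 1 (NOTCH4), 3 (JAG1), 2 (JAG2) and 3 (DLL4). Any link of GC boxes to the falls was not tested. The core of the RBPJ site, GTGGGAA or TTCCCAC, was in none of the 7 and in 6.25% of all promoters.

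Among the ligands, JAG2, a Jagged ligand that activates Notch on neighbouring cells, had the largest rise of any tested member with LncND siRNA. It was at 1.20, 1.32 and 1.16 FPKM with scrambled siRNA and at 4.08, 4.45 and 4.46 FPKM with LncND siRNA. The treated libraries lay close together and far above the controls, 3.53-fold in the mean (log2 1.26 ± 0.0566, limma adjusted p = 6.70e-08). With the mimic JAG2 was at 2.76 and 2.96 FPKM, against 2.56 and 2.39 FPKM, and did not pass (log2 0.15 ± 0.078, adjusted p = 0.117). It passed as higher under median-ratio scaling (0.20, adjusted p = 0.0431) and quantile normalization (0.23, adjusted p = 0.0259).

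JAG1, the other Jagged ligand, was at 0.920, 0.910 and 0.883 FPKM with scrambled siRNA and at 1.28, 1.38 and 1.56 FPKM with LncND siRNA. It rose 1.56-fold with no overlap (log2 0.34 ± 0.0645, limma adjusted p = 0.00104), a smaller step than that of JAG2. JAG1 reached the minimum of 1 FPKM for testing only through the LncND siRNA libraries; with no minimum its adjusted p was 0.00512. With the mimic JAG1, whose 3′ UTR holds a seed match, was at 1.44 and 1.40 FPKM, above both controls at 1.11 and 1.09 FPKM. That difference did not pass (log2 0.20 ± 0.0867, limma adjusted p = 0.065), but it did under 5 other settings, among them both scalings (adjusted p = 0.0333 and 0.0244).

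DLL3, an intracellular Notch inhibitor and a surface antigen of neuroendocrine tumours, fell in both comparisons. It was at 4.44, 4.44 and 4.74 FPKM with scrambled siRNA and at 3.25, 3.13 and 3.12 FPKM with LncND siRNA (1.43-fold lower; log2 -0.41 ± 0.0475, limma adjusted p = 3.30e-05). With the mimic it was at 2.92 and 2.72 FPKM, against 6.04 and 5.56 FPKM (2.05-fold lower; log2 -0.83 ± 0.0733, adjusted p = 9.88e-06). The groups were separate in both comparisons. DLL3 held no seed match in its coding sequence or 3′ UTR.

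DLL1 and DLL4, the activating Delta-like ligands, were close to the lower end of detection. DLL1 was at 0.251, 0.178 and 0.191 FPKM with scrambled siRNA, 0.113, 0.139 and 0.123 FPKM with LncND siRNA, 0.129 and 0.181 FPKM with scrambled miRNA, and 0.340 and 0.378 FPKM with the mimic. Its treated libraries were below the controls with the siRNA and above them with the mimic, on an estimated 6.63 to 33.1 fragments per library. DLL4 was listed at the lowest value of the tables, 0.001 FPKM, in scrambled siRNA replicate 1, and at 0.0272 and 0.0160 FPKM in the other controls. It was at 0.0577, 0.0625 and 0.0592 FPKM with LncND siRNA, at 0.0711 and 0.0269 FPKM with scrambled miRNA and at 0.0469 and 0.110 FPKM with the mimic. An estimated 1.98 to 9.94 fragments lay behind each DLL4 value other than the lowest, and the mimic and its control overlapped. Both genes were below the minimum for testing in both tables. With no minimum DLL1 passed as lower with LncND siRNA (log2 -0.10, limma adjusted p = 0.039, but 0.0825 with a minimum of 0.1 FPKM) and higher with the mimic (0.24, adjusted p = 0.043), and DLL4 passed as higher with LncND siRNA (0.063, adjusted p = 0.0086) and did not pass with the mimic (0.039, adjusted p = 0.68).

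DLK1, a membrane protein of the Delta-like family that is encoded by an imprinted gene, was by far the most abundant member, and it rose in both comparisons. It was at 271, 279 and 295 FPKM with scrambled siRNA and at 391, 398 and 386 FPKM with LncND siRNA. The treated libraries, replicate 1 among them, lay within a narrow band above all controls, 1.39-fold in the mean (log2 0.48 ± 0.0486, limma adjusted p = 1.36e-05). With the mimic DLK1 was at 1533 and 1485 FPKM, against 527 and 519 FPKM with scrambled miRNA. That was the largest change of any member with the mimic, 2.89-fold (log2 1.53 ± 0.049, limma adjusted p = 2.82e-08), in a gene whose longest annotated transcript carries seed matches in the 3′ UTR.

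**Figure D2:**
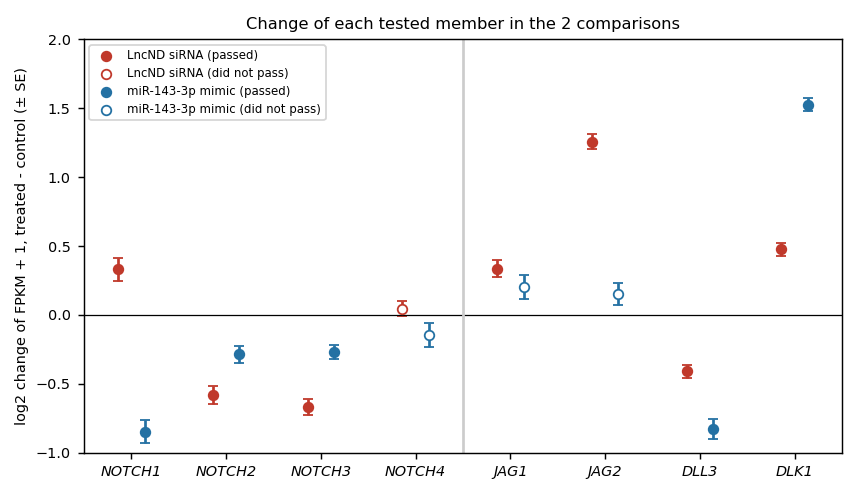
Difference of log2(FPKM + 1) between treated and control libraries for the 8 tested members (points, with 1 SE as bars), for LncND siRNA in red and the miR-143-3p mimic in blue; filled points passed the limma threshold. NOTCH1 is at 0.33 and -0.85, NOTCH2, NOTCH3 and DLL3 are below 0 and DLK1 is above 0 with both treatments.

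To ask whether the treatments differed in their effect, the mimic effect minus the LncND siRNA effect was tested with limma over the 10 libraries together. Of the 8 tested members 6 passed, 3 with a higher and 3 with a lower effect of the mimic, against 60.2% of all 12327 genes tested (22% higher, 38.1% lower). NOTCH1 differed by -1.18 ± 0.117 on the log2 scale (adjusted p = 1.91e-06) and is the member that passed in opposite directions. JAG2 differed by -1.11 ± 0.0889 (adjusted p = 2.59e-07) and DLL3 by -0.42 ± 0.0796 (adjusted p = 0.000524): the effect on JAG2, which did not pass with the mimic itself, was lower there, and DLL3 fell more. DLK1 differed by 1.05 ± 0.0711 (limma adjusted p = 5.60e-08), the larger rise being with the mimic. The falls of NOTCH3 and NOTCH2 were smaller with the mimic, by 0.40 ± 0.0853 (adjusted p = 0.00132) and 0.29 ± 0.0956 (adjusted p = 0.0173). The NOTCH2 difference missed the threshold without mimic replicate 1 (0.23, adjusted p = 0.0812), without scrambled miRNA replicate 1 (0.28, adjusted p = 0.0561) and with no filter (adjusted p = 0.0865). JAG1 (-0.13, adjusted p = 0.247) and NOTCH4 (-0.19, adjusted p = 0.0679) did not pass, although NOTCH4 did with no filter (adjusted p = 0.0159).

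Summed per library, receptor transcripts fell and ligand transcripts rose in both comparisons, and nearly all of the ligand sum was DLK1. The 4 receptors summed to 39.8 ± 2.07 FPKM (SD, n = 3) with scrambled siRNA and to 27.04 ± 2.12 FPKM (n = 3) with LncND siRNA. They summed to 41.5 ± 1.30 FPKM (n = 2) with scrambled miRNA and to 32.9 ± 1.06 FPKM (n = 2) with the mimic. Ligand FPKM was 7.27 ± 0.632 times receptor FPKM with scrambled siRNA and 14.9 ± 1.24 times with LncND siRNA, with no overlap of libraries (log2 receptor to ligand difference -1.03, exact permutation p = 0.1). It was 12.8 ± 0.556 times with scrambled miRNA and 46.2 ± 0.460 times with the mimic (-1.85, exact permutation p = 0.333). These are the smallest p-values that 3 against 3 and 2 against 2 libraries allow in a 2-sided test, so neither could pass. Over the 20 sums, shares and ratios computed for each comparison the Benjamini-Hochberg adjusted values were 0.111 and 0.476. DLK1 made up 97.6% of ligand FPKM with scrambled siRNA, 97.7% with LncND siRNA, 98.2% with scrambled miRNA and 99.5% with the mimic.

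Without DLK1 the comparisons parted. The other 5 ligands summed to 6.89 ± 0.0859 FPKM (n = 3) with scrambled siRNA and to 9.09 ± 0.272 FPKM (n = 3) with LncND siRNA, a rise carried by JAG2. They summed to 9.58 ± 0.466 FPKM (n = 2) with scrambled miRNA and to 7.54 ± 0.0439 FPKM (n = 2) with the mimic, where DLL3 fell. Receptor FPKM was 5.77 ± 0.341 times that of these ligands with scrambled siRNA and 2.97 ± 0.146 times with LncND siRNA (log2 difference -0.96, exact permutation p = 0.1, no overlap). With the mimic it was 4.36 ± 0.167 times and with scrambled miRNA 4.34 ± 0.347 times, and the libraries overlapped (log2 0.0089, exact permutation p = 1). With the mimic the ratio thus shifted only when DLK1 was counted, whereas with LncND siRNA it shifted either way.

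The mix within each class moved as well. NOTCH1 made up 4.34 ± 0.231% of receptor FPKM with scrambled siRNA and 8.98 ± 0.625% with LncND siRNA, while its share was 5.97 ± 0.0948% with scrambled miRNA and 2.84 ± 0.166% with the mimic. NOTCH3 held the largest share throughout, 55.4 ± 0.737% with scrambled siRNA, 50.07 ± 0.498% with LncND siRNA, 58.6 ± 0.674% with scrambled miRNA and 60.9 ± 0.598% with the mimic. NOTCH3 was accordingly 12.8 times NOTCH1 with scrambled siRNA, 5.60 times with LncND siRNA, 9.81 times with scrambled miRNA and 21.4 times with the mimic, with no overlap of treated and control libraries. Among the ligands without DLK1, the inhibitor DLL3 was the main component of both control groups, at 65.8 ± 1.75% and 60.5 ± 0.604%. It fell to 34.9 ± 1.86% with LncND siRNA and 37.4 ± 2.07% with the mimic, while JAG2 went from 17.8 ± 1.33% to 47.6 ± 1.08% and from 25.9 ± 0.0333% to 37.9 ± 1.66%. DLL3 FPKM was thus 3.71 times JAG2 FPKM with scrambled siRNA, 0.734 times with LncND siRNA, 2.34 times with scrambled miRNA and 0.988 times with the mimic. None of these shares could pass an exact permutation test at these group sizes.

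**Figure D3:**
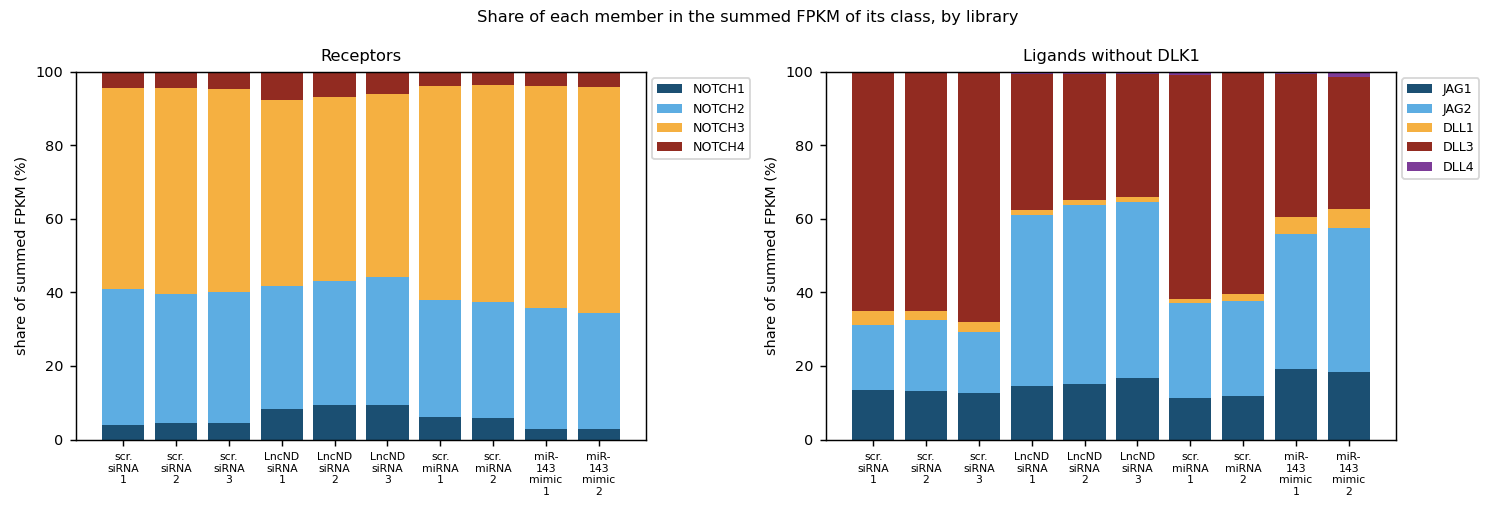
Share in percent of each member in the summed FPKM of the 4 receptors (left) and of the 5 ligands without DLK1 (right), 1 stacked bar per library. NOTCH3 holds the largest receptor share in all 10 libraries, and DLL3 gives way to JAG2 and JAG1 in the LncND siRNA and mimic libraries.

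In order of level, DLK1, NOTCH3 and NOTCH2 were the top members in all 4 groups and DLL1 and DLL4 the bottom ones, with no overlap between neighbours there. The middle ranks changed. With scrambled siRNA the order was DLL3, NOTCH4, NOTCH1, JAG2 and JAG1, in which only NOTCH4 and NOTCH1 overlapped. With LncND siRNA it was JAG2, DLL3, NOTCH1, NOTCH4 and JAG1, with no overlaps. With scrambled miRNA it was DLL3, JAG2, NOTCH1, NOTCH4 and JAG1, in which JAG2 and NOTCH1 overlapped, and with the mimic JAG2, DLL3, JAG1, NOTCH4 and NOTCH1, in which JAG2 and DLL3 overlapped. NOTCH1 was therefore the lowest of the tested members with the mimic only.

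The genes that act with the receptors and ligands were taken as 7 lists by role, 64 genes besides the members, of which 53 were tested with LncND siRNA and 52 with the mimic. Named are the 2 genes of each list with the largest difference in each comparison. APH1A, RBPJ with LncND siRNA, MAML2, DLK2, HES1 and HEY1 were added after their values were seen. With LncND siRNA 23 rose, 17 fell and 13 did not pass, with a median log2 difference of 0.092, against 0.024 over all genes. With the mimic 17 rose, 16 fell and 19 did not pass, with a median of -0.0041, against -0.062. The counts of each list below stand beside the shares over all genes. These were 36.6% higher and 30.3% lower with LncND siRNA, and 24.6% higher and 38.6% lower with the mimic. The mimic split depends on scaling: over all genes it called 3094 higher and 4853 lower with FPKM as deposited, 3931 and 4052 under median-ratio scaling, and 4141 and 3860 under quantile normalization, and over these lists 22 and 15, and 23 and 13. LncND siRNA gave 22 and 18, and 20 and 21, over the lists under the same scalings.

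At the ligand side, ubiquitin ligases of the Mind bomb and Neuralized families drive the endocytosis by which a ligand pulls on its receptor. Of 4 tested, 2 rose and 1 fell in each comparison. MIB2 rose from 9.79 to 16.7 FPKM with LncND siRNA (log2 0.71) and NEURL1B fell from 7.03 to 4.29 FPKM (-0.60). With the mimic MIB1, the main ligase for Notch ligands, rose from 14.4 to 21.1 FPKM (0.53). NEURL was at 1.08 against 1.49 FPKM with the mimic (-0.26, limma adjusted p = 0.0365), a call lost under both scalings, with no filter, without mimic replicate 2 and without scrambled miRNA replicate 1. Of the enzymes that put sugars on the receptors' EGF repeats, 2 of 4 rose and 2 fell in each comparison. The O-fucosyltransferase POFUT1 fell from 16.2 to 11.01 FPKM (-0.52) and the Fringe enzyme RFNG rose from 26.5 to 32.4 FPKM (0.28) with LncND siRNA. With the mimic the O-glucosyltransferase POGLUT1 rose from 8.62 to 12.3 FPKM (0.47) and the Fringe enzyme LFNG, which changes how a receptor discriminates Delta-like from Jagged ligands, fell from 2.90 to 1.24 FPKM (-0.80).

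Of 9 tested genes of receptor cleavage, 6 rose and 1 fell with LncND siRNA (median 0.25). The gamma-secretase subunit genes APH1B, from 2.92 to 6.67 FPKM (0.97), and PSEN2, from 10.3 to 17.1 FPKM (0.68), had the largest changes, and APH1A, the other form of that subunit, fell from 133 to 86.9 FPKM (-0.61). With the mimic none of the 9 rose and 2 fell (median -0.069). They were ADAM10, the protease of the ligand-induced cut, from 16.5 to 12.9 FPKM (-0.33), and PSENEN, from 102 to 89.8 FPKM (-0.19, a call lost under quantile normalization, with no filter and without scrambled miRNA replicate 1). Under median-ratio scaling 1 of the 9 rose and 2 fell with the mimic, and under quantile normalization 1 and 1.

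Of 8 tested genes of the nuclear complex, none rose and 6 fell with LncND siRNA (median -0.36, against 0.024 over all genes, of which 30.3% fell). The Mastermind coactivator MAML1 fell from 14.3 to 8.69 FPKM (-0.65), its relative MAML3 from 11.9 to 7.85 FPKM (-0.55) and RBPJ, the DNA-binding partner of the cleaved receptor, from 16.2 to 12.5 FPKM (-0.35). The count was 1 higher and 5 lower without LncND siRNA replicate 1, and 1 higher and 6 lower without limma's variance trend or with a minimum of 0.1 FPKM, the higher gene in each being the Mastermind coactivator MAML2 (0.17, limma adjusted p = 0.057 in the reported fit). With the mimic 3 of 7 rose and 2 fell (median 0.13), or 5 and 2 under both scalings. MAML3 rose from 8.60 to 17.8 FPKM (0.97) and RBPJ from 7.86 to 12.5 FPKM (0.61), opposite in direction to the siRNA comparison. Among 11 inhibitors and turnover factors 3 rose and 3 fell with LncND siRNA, 2 and 4 under median-ratio scaling and 2 and 6 under quantile normalization. The ubiquitin ligase adaptor FBXW7, which marks the intracellular domain for degradation, rose from 8.83 to 13.2 FPKM (0.53) and the Numb relative NUMBL from 7.23 to 10.3 FPKM (0.45). With the mimic 5 of 11 rose and 2 fell, 7 and 2 under median-ratio scaling, 6 and 2 under quantile normalization, and 1 and 2 with no filter. NRARP, a feedback inhibitor that Notch itself induces, fell from 6.15 to 2.34 FPKM with the mimic (-1.10). FBXW7 rose there from 11.6 to 14.6 FPKM (0.31, a call lost with no filter).

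Of 6 tested non-canonical ligands besides DLK1, its relative DLK2 among them, 6 rose with LncND siRNA (median 0.57). With the mimic 4 rose and 1 fell (median 0.68). Over all genes 36.6% rose with LncND siRNA and 24.6% with the mimic, with medians of 0.024 and -0.062. CNTN1, a neuronal adhesion protein reported to bind Notch, rose from 10.7 to 29.3 FPKM with LncND siRNA (1.38), and DNER, a neuronal EGF-repeat protein, from 2.82 to 6.46 FPKM (0.97). With the mimic CNTN6, a relative of CNTN1, rose from 2.69 to 12.1 FPKM (1.83) and DNER from 7.52 to 26.4 FPKM (1.69). DLK2, the closest relative of DLK1, rose from 1.10 to 1.85 FPKM with LncND siRNA (0.44, limma adjusted p = 0.00245) and fell from 2.21 to 1.58 FPKM with the mimic (-0.31, adjusted p = 0.0191; a call lost under quantile normalization, with no filter, without mimic replicate 1 and without scrambled miRNA replicate 1). It thus did not share the rise of DLK1 with the mimic.

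Of 14 tested genes listed here as transcriptional targets of Notch, 4 rose and 5 fell with LncND siRNA (median -0.031), 2 and 5 under quantile normalization. HES6, whose place among Notch targets was not checked, is among the falls in both comparisons. CDKN1A, the cell cycle inhibitor p21 and also a p53 target, rose from 81.9 to 303 FPKM (1.87), and MYC fell from 18.9 to 10.03 FPKM (-0.85). With the mimic 1 rose and 8 fell (median -0.37, against -0.062 over all genes), 2 and 8 under median-ratio scaling and 3 and 8 under quantile normalization. HES7 fell from 4.71 to 0.903 FPKM (-1.59), CDKN1A from 123 to 47.6 FPKM (-1.35) and HES1 from 4.13 to 2.32 FPKM (-0.62, a call lost with no filter). HES7 reached the minimum of 1 FPKM for testing only through its controls, and with no minimum its limma adjusted p was 0.0142. With LncND siRNA HES1 rose instead, from 3.15 to 4.15 FPKM (0.30, limma adjusted p = 0.026). Of the 4 genes of this list that rose there, HES1 had the highest adjusted p. The number that rose was 3 with no filter, without scrambled siRNA replicate 2 and without LncND siRNA replicate 2, and 2 under quantile normalization. HEY1 rose with LncND siRNA from 10.7 to 14.3 FPKM (0.39) and did not pass with the mimic (-0.12, limma adjusted p = 0.0506). NOTCH3 itself is in this list, and NRARP and DTX1 stand in it and among the inhibitors.

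**Figure D4:**
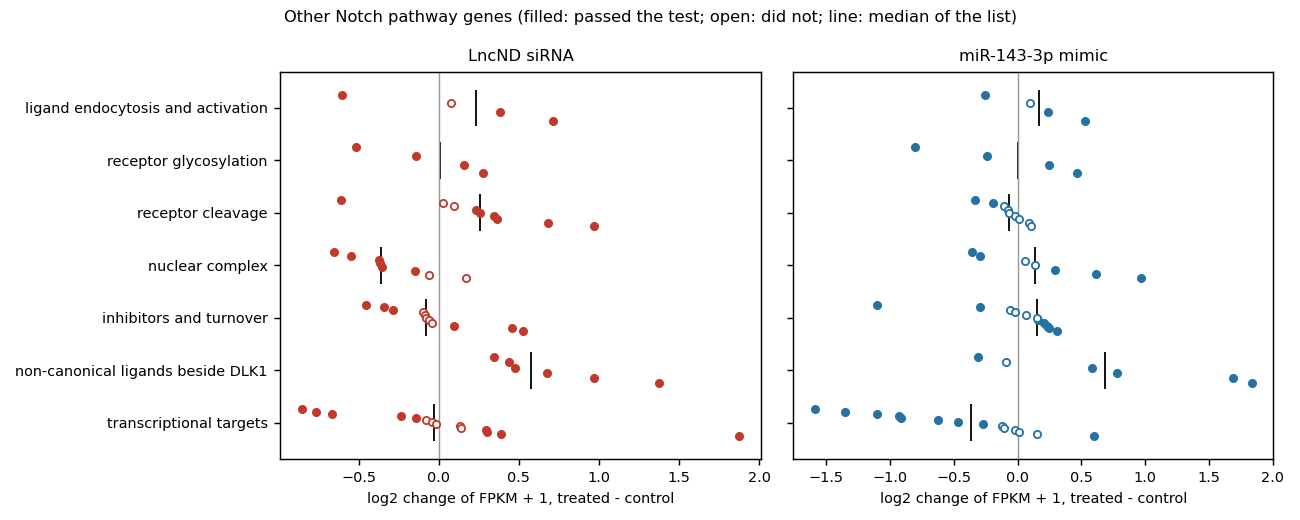
Difference of log2(FPKM + 1) between treated and control libraries for each tested gene of the 7 Notch pathway lists (1 point per gene; filled points passed the limma threshold; black lines are list medians), for LncND siRNA on the left and the mimic on the right. With LncND siRNA the nuclear complex has its median at -0.36 and the other non-canonical ligands at 0.57; with the mimic the transcriptional targets have theirs at -0.37.

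The genes most alike to each tested member over the 10 libraries were ranked by Pearson's r of log2(FPKM + 1), after the mean of each table was taken out, among 12327 genes. The libraries share only 2 treatment contrasts, so a high r mainly says that a gene had differences of like proportion in both. For NOTCH1 they were ITPR3 (0.997), PLEKHA6 (0.995) and LRP10 (0.989). For NOTCH2 they were ITPR1 (0.996), HUWE1 (0.995) and ANKRD17 (0.994), and for NOTCH3 POM121 (0.995), MAP4 (0.995) and again ITPR1 (0.994), a calcium release channel of the endoplasmic reticulum. NOTCH4 had lower values, with DCAF13 (0.968), PAIP2B (0.965) and ANXA2P2 (0.960). JAG1 was most like SEMA6D (0.994), SETD7 (0.992) and SLC12A7 (0.990), and JAG2 most like FBXL19-AS1 (0.999), PLD3 (0.997) and CAP2 (0.996). DLL3 was most like ACBD7 (0.998), VOPP1 (0.995) and NPL (0.995). DLK1 was most like PYGO2 (0.999), a Wnt pathway cofactor, WDR1 (0.998), an actin regulator, and IGFBPL1 (0.998). Among the members themselves NOTCH2 and NOTCH3 had the highest r (0.988), JAG1 and JAG2 reached 0.913, and DLL3 and DLK1 ran opposite to each other (-0.970).

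DLK1 lies in an imprinted domain of chromosome 14 whose paternal copy expresses DLK1, RTL1 and DIO3 and whose maternal copy expresses MEG3 and other non-coding RNAs. These genes were picked after their values were seen. MEG3, between DLK1 and RTL1, was at 0.001 to 0.0175 FPKM in all 10 libraries, so the maternal transcript was hardly detected in any group. RTL1, a retrotransposon-derived gene 145524 bp after DLK1, was at 247 ± 8.54 FPKM (SD, n = 3) with scrambled siRNA and at 180 ± 6.88 FPKM with LncND siRNA. It fell where DLK1 rose (log2 -0.46 ± 0.0468, limma adjusted p = 1.40e-05). With the mimic RTL1 was at 457 ± 1.46 FPKM (n = 2), against 354 ± 2.00 FPKM, a rise (0.37 ± 0.0429, adjusted p = 5.98e-05) as for DLK1. RTL1 has an antisense transcript, and the strand setting of the counting is not given in the sources used here, so reads of the pair cannot be told apart. DIO3, at the far end of the domain, was at 0.829, 0.731 and 0.809 FPKM with scrambled siRNA and at 1.29, 1.44 and 1.36 FPKM with LncND siRNA. It was at 1.47 and 1.53 FPKM with scrambled miRNA and at 2.54 and 2.34 FPKM with the mimic, above the controls in both comparisons. BEGAIN, the nearest gene of at least 1 FPKM on the other side of DLK1, rose from 54.9 to 64.9 FPKM with LncND siRNA (0.24) and from 59.2 to 95.6 FPKM with the mimic (0.68).

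**Figure D5:**
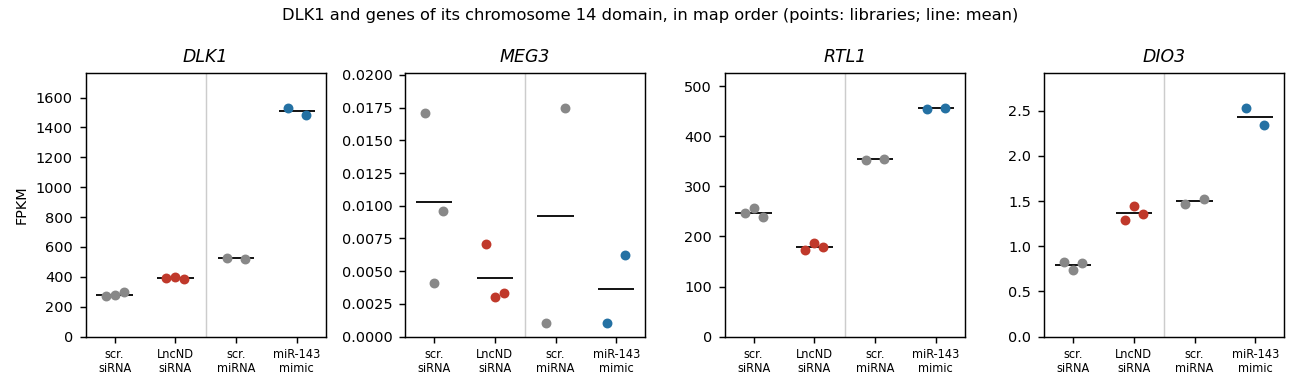
FPKM of DLK1, MEG3, RTL1 and DIO3 in each library (points; lines are group means), with a linear axis of its own for each gene. MEG3 does not exceed 0.0175 FPKM in any library, and RTL1 is lower with LncND siRNA and higher with the mimic, whereas DLK1 and DIO3 are higher with both.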

How the data were processed

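Poly(A) RNA of SH-SY5Y cells was sequenced, per the labels' protocols, from stranded mRNA libraries. The authors deposited FPKM in separate tables for the 6 siRNA and the 4 miRNA libraries. Some rows hold status words in place of numbers, so the deposited columns were treated as another unit in the checks, with FPKM as their numbers. Per the submitters' processing notes, TopHat (listed as 1.0.0), Cufflinks and hg19 were used. Which annotation, strand setting and filters the authors applied is not given in the sources used here. Of 25275 rows per table, 1304 off the assembled chromosomes were dropped, a repeated name kept its row with the highest mean, and 0.001 is the lowest deposited FPKM.

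Each table was tested alone with limma 3.58.1 (trend on) in R 4.3.3 on log2(FPKM + 1), for genes averaging 1 FPKM or more, 2-sided, with Benjamini-Hochberg adjustment over all genes and a threshold of 0.05. Fold changes on this scale understate the change of low genes. DLL1 and DLL4 (2 of the 10 members) fell below this minimum and were tested only with it lowered or removed. A gene can pass the minimum through its high group alone, as JAG1 and MAML2 did with LncND siRNA and NOTCH1 and HES7 with the mimic. The difference of the effects used 1 model of the 4 groups, in which an offset between tables cancels if it is constant in log2(FPKM + 1). A constant fold offset in FPKM does not fully cancel for low genes. Control means were 1.23 (siRNA) and 2.48 (miRNA) FPKM for JAG2, and 1.73 and 2.48 for NOTCH1. Over the settings tried, the JAG2 difference ran from -1.54 to -0.92 and the NOTCH1 difference from -1.78 to -0.96. Sums, shares and ratios per library were tested by exact permutation. In simulated data 100 genes were changed by 0.5 and 100 by 1 (log2). The limma step recovered 93% and 100% of them in the siRNA design, with 12459 genes tested. It recovered 61% and 97% in the miRNA design, with 12579 genes tested. Genes were changed only above a set control level, which NOTCH1, NOTCH4, JAG1 and JAG2 did not reach with scrambled siRNA. Far more genes were called in the real data, so these shares cannot be carried over to it.

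Depth estimates came from the spacing of low FPKM values in 896 single-exon genes of 800 to 6000 bp and were used in no test. Seed matches were searched in GENCODE v29 and promoters in RefSeq; hg19 and GRCh38 coordinates were not converted. The members, the pathway lists and the naming rule (all members, the 2 genes of each list with the largest absolute difference in each comparison, and the 3 genes with the highest correlation to each tested member) were chosen with earlier results of these data known. Alternatives were the pseudocount (0.1), the filter (none, or 0.1 FPKM), median-ratio scaling, quantile normalization, summed repeated rows, limma without the trend, a replicate block and leaving out each library. No column of measurements was left unassigned.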

Additional observations from a re-analysis of the deposited data

Results flagged for a closer look

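For 6 members the effect of the mimic and that of LncND siRNA differed in the limma test of the difference itself, given as mimic effect minus LncND siRNA effect in log2(FPKM + 1). NOTCH1 differed by -1.18: it was higher in 3 of 3 LncND siRNA libraries and lower in 2 of 2 mimic libraries than in any of their controls. JAG2 differed by -1.11 and DLL3 by -0.42. DLK1 differed by 1.05, NOTCH3 by 0.40 and NOTCH2 by 0.29, and the NOTCH2 difference is the least firm, since it missed the threshold in 3 alternatives. The mimic and the siRNA were given at 50 nM and 100 nM and have separate controls and tables, so dose, agent and table cannot be told apart from the target of each treatment.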

How the results depend on the processing

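Directions and calls of the members held under most alternatives. Over the gene counts, member counts and summed ratios, 82 recomputed values kept direction and size class; the exception was the receptor to ligand ratio with the mimic, which was 0.0089 (log2) without DLK1 in place of -1.85. Quantile normalization turned 3 differences that did not pass: NOTCH4 with LncND siRNA (-0.0992, adjusted p = 0.126), and the difference of the effects for NOTCH4 (0.018, adjusted p = 0.867) and for JAG1 (0.071, adjusted p = 0.513). The cause was not tested. Member calls with LncND siRNA numbered 6 under quantile normalization and 9 with no filter, in place of 7, and those with the mimic 5 to 7. Without each library in turn the siRNA comparison called 7713 to 8596 genes and the mimic comparison 6774 to 7598, and the receptor to ligand difference ran from -1.10 to -0.97 and from -1.89 to -1.80. With no filter the mimic comparison called 5327 genes, in place of 7947.

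Deviations of same-numbered treated and control libraries had correlations of 0.068, 0.207 and -0.053 for siRNA and 0.135 for miRNA. With 2 miRNA libraries per group, differently numbered ones necessarily give the same value with its sign turned, -0.135. Correlations from so few libraries per group cannot show whether same-numbered libraries were paired. With the number as a replicate block 8022 and 8247 genes were called, and no member's call changed, with 7, 5 and 6 members called with LncND siRNA, with the mimic and for the difference. Not every siRNA library correlated best with its own number. The receptor to ligand differences under this pairing were -1.03 and -1.85. Depth limits DLL1 and DLL4 most, and 2 libraries per group limit every value with the mimic.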

Other observations

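The nearest gene of at least 1 FPKM on each side of each member was looked up in hg19 after the member values had been seen. For 3 neighbours the values are given, followed by the neighbours on the other side of the same members. EGFL7, itself reported to bind Notch receptors, lies 113069 bp after NOTCH1 and was at 26 ± 1.61 FPKM (SD, n = 3) with scrambled siRNA, 42 ± 1.10 FPKM (n = 3) with LncND siRNA, 37.7 ± 1.57 FPKM (n = 2) with scrambled miRNA and 57.2 ± 2.66 FPKM (n = 2) with the mimic, so it rose with both treatments (limma adjusted p = 1.09e-06 and 8.18e-06) where NOTCH1 rose with LncND siRNA and fell with the mimic. NUDT14 lies 4112 bp after JAG2 and rose from 5.71 ± 0.439 to 9.12 ± 0.125 FPKM (n = 3) with LncND siRNA and from 6.32 ± 0.106 to 9.88 ± 0.726 FPKM (n = 2) with the mimic (limma adjusted p = 4.73e-06 and 5.26e-05), while JAG2 passed only in the siRNA comparison. TIMM50, a subunit of the mitochondrial import machinery 8028 bp before DLL3, fell from 17.7 ± 0.194 to 14.4 ± 1.12 FPKM (n = 3) and from 17.4 ± 0.0655 to 13.6 ± 0.222 FPKM (n = 2), as DLL3 did (limma adjusted p = 0.000812 and 0.0003).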
